A study of Mus musculus with 16 samples.

Results

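MyoD binding in proliferating mouse myoblasts was described from the deposited list of MyoD chromatin immunoprecipitation sequencing (ChIP-seq) peaks. All 45201 peaks of that list on chromosomes 1 to 19 were taken, out of 45951 MyoD peaks in the whole list and 193322 peaks in the 4 lists of the series. The rule used position alone, so no peak was chosen by its score. The study asked where RUNX1, MyoD and c-Jun bind in primary myoblasts and how their sites relate.

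The cells were muscle stem cells, called satellite cells, from the gastrocnemius of wild type C57BL/6 mice 2 to 3 weeks old, kept for 3 days in proliferation medium. The MyoD group had 2 libraries made with a mouse antibody to MyoD, and its control group had 2 libraries made with mouse IgG from the same kind of cells. RUNX1 and c-Jun were mapped in such proliferating myoblasts with 2 libraries each, and MyoG with 2 libraries from cells moved to differentiation medium for 24 hours, 4 days in culture in all. The labels call the replicates biological but name no animal or pool for them. They state no test of purity of the primary cells, and without gene positions on the files' build, markers of muscle or of other cell types were not analysed here.

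The deposited result is 1 peak list per factor, so neither the spread between the 2 MyoD libraries nor the IgG signal at a peak could be given. Library depth is unknown. Errors below, written ±, are standard deviations of the value over the 19 chromosomes. They hold the counting error of the peaks on each chromosome as well as variation along the genome, and do not show variation between cultures. Peaks are not replicates, so no p-value was computed, and the results are descriptions of this list.

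MyoD is a basic helix-loop-helix transcription factor that commits cells to the muscle lineage. It binds short E-box sequences as a dimer with E proteins and is already present in dividing myoblasts, before differentiation begins. MyoG (myogenin) belongs to the same family and rises when myoblasts leave the cell cycle and fuse. RUNX1 is a Runt-domain factor known from blood development and also expressed in regenerating and denervated muscle. c-Jun is a subunit of AP-1, a dimeric factor linked to growth signals.

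MyoD peaks spanned a wide range of strength. Each peak carries a score written by the authors' peak caller, which ranks peaks within the list. Scores of different lists are also set side by side below, though whether they share 1 scale is not known. The median MyoD score was 176.9, with quartiles at 88.9 and 471.6, and the 90th percentile was at 1172. The lowest score was 50.01. At the upper end, 796 peaks sat at exactly 3100 and 72 lay above it, up to 3233.06, together 1.92% of the list. Most MyoD peaks were thus weak by this score, with a long tail of strong ones. Peaks at 3100 cannot be ranked among themselves. The highest score was 3233.06 in each of the 4 lists. Whether the 72 peaks above 3100 were stronger than those at 3100 was not tested, so their order by score may not hold.

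The weak end of the MyoD list had a different shape from the other lists. Counted in steps of 4 score units, MyoD peaks were most numerous from 62 to 66, where 1491 lay, and fewer towards the lower limit, with 1009 from 50 to 54. In the other lists the fullest step was the lowest one, from 50 to 54, with 1690 RUNX1, 1701 c-Jun and 2456 MyoG peaks. Peaks with a score under 60 made up 6.06% of the MyoD list, 9.13% of the RUNX1 list, 9.44% of the c-Jun list and 8.67% of the MyoG list. MyoD was the list with the fewest peaks just above the lower limit. How the peak caller was set for each list is not given in the sources used here, and its part in this shape was not tested.

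MyoD peaks were of fairly even width. The median was 818 bp with quartiles at 677 and 948 bp, and the median per chromosome ran from 801 bp on chromosome 8 to 829 bp on chromosome 16. MyoG peaks were narrower, at a median of 641 bp, and RUNX1 and c-Jun peaks wider, at 945 and 1124 bp. Width rose with score: the Spearman correlation across the 45201 MyoD peaks was 0.71, against 0.72 in the MyoG list, 0.55 in the RUNX1 list and 0.85 in the c-Jun list. Within a list the points come from the same libraries and the same peak calling, so the correlation describes the list.

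The MyoD peaks were divided into 10 classes of near equal size by score, from class 1 (50.01 to 64.88, 4505 peaks) to class 10 (1172 to 3233.06, 4521 peaks). Median width grew at each step, from 596 bp in class 1 to 809 bp in class 5 and 1067 bp in class 10. In class 1 the widths piled up in 1 narrow band: 1099 of 4505 peaks (24.4%) were 550 to 574 bp wide, and 346 were 575 to 599 bp wide. Among peaks with a score under 80, this band held 17.2% of MyoD peaks. The fullest band of 25 bp in the other lists held 12.3% of RUNX1, 10.1% of c-Jun and 12.3% of MyoG peaks of such scores. The fullest band of the MyoG list was also 550 to 574 bp, with 1540 peaks, so this band was not particular to MyoD. By this count the weak MyoD peaks had the largest share in a single band of the 4 lists. Median widths of such peaks differed between lists, from 526 bp for MyoG to 938 bp for c-Jun, and a band of fixed size does not allow for this. Whether 550 to 574 bp reflects a setting of the peak caller was not tested.

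**Figure D1:**
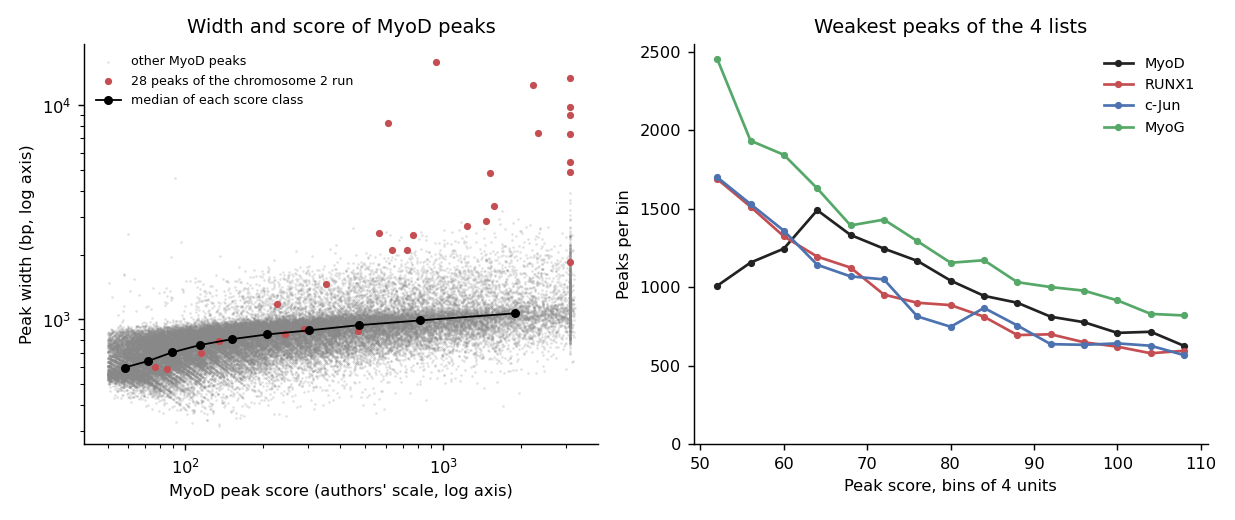
Left, width against score of each MyoD peak on chromosomes 1 to 19, both on log axes, with the median of each of 10 score classes as a line and the 28 peaks of a run on chromosome 2 in red. Right, number of peaks per step of 4 score units at the weak end of each list, where MyoD peaks were most numerous from 62 to 66 and the other 3 lists from 50 to 54.

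Stronger MyoD peaks more often met peaks of the other factors. A partner was counted as present when its peak overlapped the MyoD peak by at least 1 bp. Over the whole list, 42.8% of MyoD peaks met a RUNX1 peak (19337 of 45201, ± 3.43 points), 42.1% met a c-Jun peak (19023, ± 1.16) and 77.3% met a MyoG peak of early myotubes (34929, ± 2.42). Read from the partner's side, 44.5% of the 42226 RUNX1 peaks, 44.2% of the 41480 c-Jun peaks and 57.8% of the 61491 MyoG peaks met a MyoD peak. The list taken as MyoG bears an abbreviation and was assigned to MyoG because the other 3 lists name their factors.

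RUNX1 was present at 22.7% ± 3.17 of the MyoD peaks of class 1, 36.0% ± 4.37 of class 5 and 75.1% ± 4.97 of class 10. The share rose at each of the 9 steps between classes, and the difference between class 10 and class 1 was 52.4 points ± 5.63, between 43.2 and 61.0 on single chromosomes. c-Jun started at the same level and ended higher, with 22.7% ± 3.01 in class 1, 33.9% ± 2.75 in class 5 and 79.8% ± 3.11 in class 10, a difference of 57.1 points ± 4.36. For both factors the largest step was the last, from class 9 to class 10, at 12.6 points for RUNX1 and 16.2 points for c-Jun. RUNX1 and c-Jun shares thus lay close together at each MyoD score, and within a class they differed by at most 4.69 points.

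MyoG was already present at 51.1% ± 3.46 of the weakest MyoD peaks and reached 75.9% ± 4.07 in class 5 and 98.0% ± 1.13 in class 10. Its difference between class 10 and class 1 was 46.9 points ± 3.40. The largest step was 7.14 points, from class 2 to class 3. For each of the 3 partners the difference was above 0 on 19 of 19 chromosomes. In class 10, 92 MyoD peaks had no MyoG peak.

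Strong MyoD peaks were also wider, and the overlap rule takes in the whole width, so the shares were recomputed at a fixed width. With each peak replaced by a window of 200 bp around its centre, 27.1% of MyoD peaks met RUNX1, 27.9% met c-Jun and 71% met MyoG. The shares still rose over the score classes, from 12.8% to 52.1% for RUNX1, from 12.5% to 56.0% for c-Jun and from 46.2% to 87.3% for MyoG. The difference between class 10 and class 1 was 39.2 points for RUNX1, 43.5 for c-Jun and 41.2 for MyoG under this rule. Among MyoD peaks of 700 to 900 bp only, reclassed by score, it was 34.6, 35.8 and 36.4 points. The rise with score was smaller under both but still present.

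**Figure D2:**
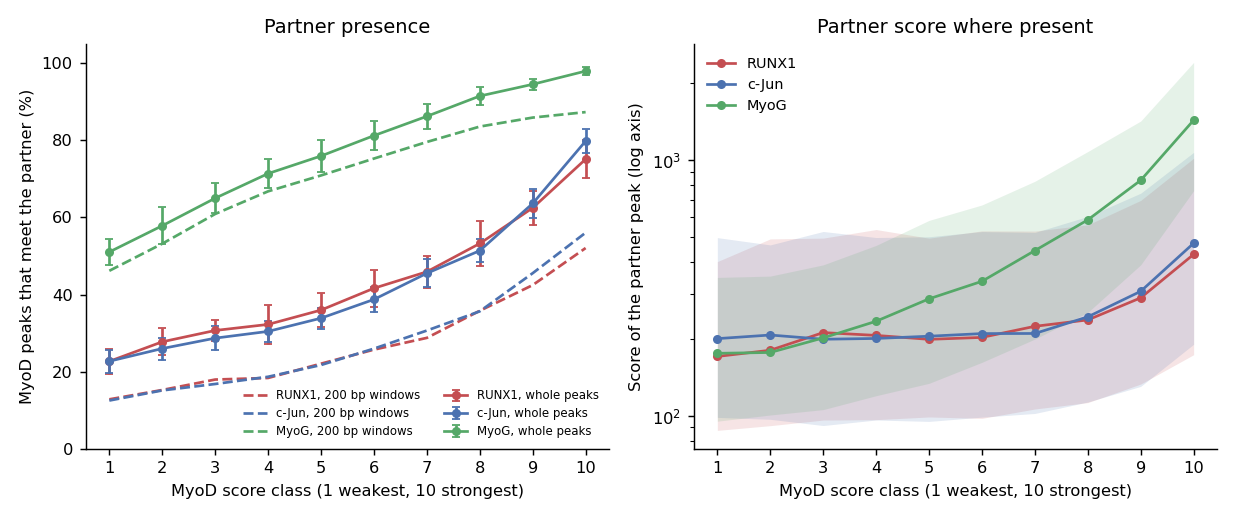
Left, share of MyoD peaks that met a RUNX1, c-Jun or MyoG peak in each of 10 classes of the MyoD score, with bars for the standard deviation over 19 chromosomes and dashed lines for windows of 200 bp around each centre. Right, median score of the overlapping partner peak (log axis) with its quartiles as a band; the MyoG median rises from 175.5 to 1432, the RUNX1 median from 170.6 to 427.7.

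Where a partner was present, its own score followed the MyoD score more closely for MyoG than for RUNX1 or c-Jun. The median score of the overlapping MyoG peak was 175.5 in class 1, 286.6 in class 5, 833.3 in class 9 and 1432 in class 10. The Spearman correlation of MyoD and MyoG scores over the 34929 shared peaks was 0.53. For RUNX1 the median was 170.6 in class 1, still 199.0 in class 5 and 427.7 in class 10, and the correlation over 19337 shared peaks was 0.19. For c-Jun the medians were 200.3, 204.7 and 472.8 in the same classes, and the correlation over 19023 shared peaks was 0.20. In class 7 the RUNX1 and c-Jun medians were still 223.8 and 209.8, and the MyoG median was 442.5. For all 3 partners most of the rise in the median thus lay in the 3 strongest classes. The medians are of raw scores. For the correlations, MyoD and partner scores were ranked separately among the shared peaks, with the highest partner score where several partner peaks overlapped. The points share the score ceiling and the same MyoD list, and peaks are not replicates, so these correlations carry no test.

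Among overlapping peaks, MyoG centres lay nearest to the MyoD centres. Wider peaks can overlap at larger centre distances, and MyoG peaks were the narrowest partner, at a median of 641 bp against 945 bp for RUNX1 and 1124 bp for c-Jun. The part of peak width in this order was not tested. The median distance between the centres of overlapping peaks was 60 bp in class 1, 49 bp in class 5 and 55 bp in class 10 for MyoG. For RUNX1 it was 154.5 bp in class 1 and 111 bp in class 10, and for c-Jun 162 bp and 103 bp. RUNX1 and c-Jun centres thus came nearer to the MyoD centre with rising MyoD score although the peaks were wider, while MyoG distances stayed between 49 and 60 bp in all 10 classes. The share of overlapping peaks with centres within 150 bp rose from 49.3% to 60.5% for RUNX1 and from 48.0% to 62.1% for c-Jun, and was 85.3% and 84.8% for MyoG in class 1 and class 10.

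Wide and narrow MyoD peaks of like score were compared by both rules. In class 10, MyoD peaks in the highest 25% of widths (1253 bp or more) met a MyoG peak in 99.03% of cases by overlap but in 72.3% by the 200 bp windows. Those in the lowest 25% of widths (960 bp or less) met one in 96.7% and 91.7%. By the 200 bp rule the MyoG share was higher in the wide peaks in 4 of 10 classes and lower in the others, from 12.4 points higher in class 1 to a difference of -19.4 points in class 10. For RUNX1 and c-Jun it was higher in the wide peaks in 9 of 10 classes each. Within score classes, MyoD peaks in the highest 25% met c-Jun by overlap more often than those in the lowest 25% in 10 of 10 classes, by 10.6 points on average, and met RUNX1 more often in 6 of 10 classes. In classes 2 to 5 the RUNX1 share was lower in the wide peaks, with the largest gap in class 2, at 23.5% against 30.9%. By the 200 bp rule the RUNX1 share in these 4 classes was higher in the wide peaks, so the sign of that gap depends on the rule.

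Sorted by partner combination, the MyoD peaks changed step by step with score. Of all MyoD peaks, 13.9% ± 1.45 met none of the 3 partners (6301), 27.0% ± 1.11 met MyoG alone (12196), and 23.6% ± 1.82 met all 3 (10648). RUNX1 with MyoG was found at 15.7% ± 1.95 (7091), c-Jun with MyoG at 11.05% ± 0.990 (4994), c-Jun alone at 5.25% ± 0.930 (2373), RUNX1 with c-Jun at 2.23% ± 0.236 (1008) and RUNX1 alone at 1.31% ± 0.163 (590). RUNX1 alone was thus the rarest combination, and c-Jun alone was more frequent. The median MyoD score was lowest without a partner, at 85.1, and highest with all 3, at 518.8.

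MyoD peaks without a partner fell from 34.6% of class 1 to 0.575% of class 10, and those with all 3 rose from 5.97% to 63.6%. The states in between were highest at different scores. MyoG alone reached its highest share in class 4 (34.3%) and fell to 8.41% in class 10. RUNX1 with MyoG was highest in class 8 (20.5%) and c-Jun with MyoG in class 9 (17.2%). c-Jun alone was highest in class 2 (8.10%) and fell to 1.13% in class 10. RUNX1 alone fell from 2.60% in class 1 to 0.0442% in class 10, which is 2 peaks. The mean number of partner lists per MyoD peak rose from 0.965 in class 1 to 2.53 in class 10.

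**Figure D3:**
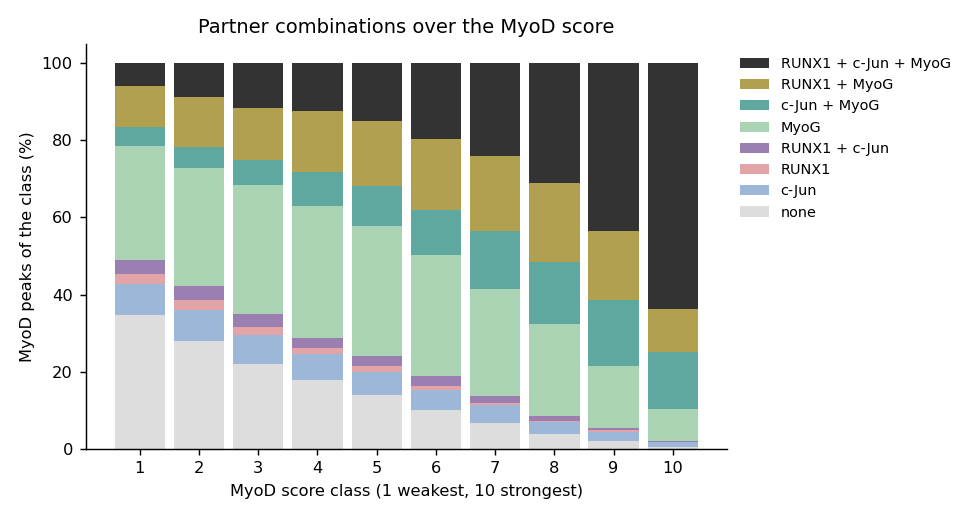
Share of MyoD peaks with each of the 8 combinations of RUNX1, c-Jun and MyoG peaks, stacked to 100% within each class of the MyoD score. The top part, all 3 partners, grows from 5.97% to 63.6%, and the lowest part, no partner, shrinks from 34.6% to 0.575%.

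The strongest peak below 3100 of each combination is given as a single site. These are extremes and not typical peaks: the median MyoD score was 85.1 without a partner and 92.7 with RUNX1 alone. All coordinates are on mm9. Without a partner, the highest MyoD score below 3100 was 2701.18, on chromosome 16 from 35316768 to 35317557, a peak of 790 bp. With MyoG alone it was 3097.97, on chromosome 2 from 131015171 to 131016469, where the MyoG score was 2314. With c-Jun alone it was 2987.09, on chromosome 11 from 41153579 to 41154643, where the c-Jun score was 1591 but the centres lay 564 bp apart. A strong MyoD peak could thus lack called peaks of the other factors, or carry a partner peak off its centre.

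With RUNX1 alone the highest score was 1571.73, on chromosome 4 from 150307384 to 150308740, beside a RUNX1 peak with a score of 82.99, under the lower quartile of 86.8 of the RUNX1 list, and centres 19 bp apart. With RUNX1 and c-Jun but no MyoG it was 2416.85, on chromosome 10 from 90839104 to 90840100, with partner scores of 99.26 and 179.4. The nearest other MyoD peak was 134104 bp away from that site. With c-Jun and MyoG it was 3091.75, on chromosome 3 from 91951604 to 91952589, with partner scores of 112.5 and 169.1. At these sites high MyoD scores stood beside partner scores near or below the medians of their own lists, which were 177.9 for RUNX1, 172.5 for c-Jun and 190.3 for MyoG.

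With RUNX1 and MyoG the highest score was 3093.07, on chromosome 10 from 40446501 to 40447580, with a RUNX1 score of 354 and a MyoG score of 1110. With all 3 partners it was 3098.41, on chromosome 14 from 47976165 to 47976954, with scores of 70.65 for RUNX1, 121.7 for c-Jun and 976.3 for MyoG. At or above 3100, the 3 MyoD peaks with the highest summed partner scores were those at 14488716 to 14490914 of chromosome 18, 28062465 to 28064378 of chromosome 15 and 91568720 to 91571177 of chromosome 6. Each had partner scores at or above 3100 in all 3 lists, and widths from 1914 to 2458 bp.

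Peaks at the score ceiling were not uniform. Of the 796 MyoD peaks at exactly 3100, 79.4% met all 3 partners and 99.5% met MyoG, with a median MyoG score of 2445 and a median width of 1181 bp. Of the 3653 peaks of class 10 below 3100, 60.1% met all 3, with a median MyoG score of 1268 and a median width of 1048 bp. The 72 peaks above 3100 lay between these sets in the share with all 3 partners (68.1%), the median MyoG score (1883) and the median width (1124 bp). The median c-Jun score did not follow this order, at 445.4 below 3100, 612.4 at 3100 and 707.3 above it.

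MyoD peaks often stood close to one another. The median gap between neighbouring MyoD peaks, end to start, was 16024 bp, with quartiles at 4927 and 44005 bp, and no peaks overlapped. The mean gap was 52143 bp, so the median was 0.307 of the mean. This ratio was 0.277 for RUNX1, 0.329 for c-Jun and 0.254 for MyoG. Another MyoD peak lay within 10 kb of 59.1% of MyoD peaks, close to the 59.6% of the RUNX1 list, below the 71.0% of the larger MyoG list and above the 55.2% of the c-Jun list. Spacing depends on the number of peaks in a list, and the lists differ in it.

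Density varied along the genome. MyoD peaks per Mb ranged from 14.0 on chromosome 14 to 24.9 on chromosome 11, with a median of 18.1 over 19 chromosomes. Of 24708 windows of 100 kb, 10920 (44.2%) held no MyoD peak, and 420 held 10 or more. Those 420 windows held 4870 MyoD peaks, 10.8% of the list. The variance of the count per window was 3.43 times its mean for MyoD, against 3.72 for RUNX1, 2.95 for c-Jun and 5.15 for MyoG.

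The fullest window, on chromosome 11 from 117100001 to 117200000, held 20 MyoD peaks, 16 of them with RUNX1, 13 with c-Jun and 18 with MyoG. Over the whole list the shares were 42.8%, 42.1% and 77.3%, and 13.9% had no partner. Next came 2 windows with 19 peaks, at 26300001 to 26400000 of chromosome 14 and at 58800001 to 58900000 of chromosome 15. Of the 4 windows with 18, those at 37700001 to 37800000 and 63300001 to 63400000 of chromosome 13 were first in order. In these 5 windows the MyoD peaks were of mixed strength, with median scores from 172.5 to 319.7, and between 1 and 4 peaks a window had no partner. Dense windows were not made of strong peaks alone.

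Linked at gaps of up to 10 kb, the MyoD peaks formed 27727 runs. Of these, 18477 were single peaks, 942 held 5 to 9 peaks and 59 held 10 or more. The median score rose with run size, from 156.3 for single peaks to 219.1 in runs of 5 to 9. RUNX1 was present at 35.0% of single peaks and at 55.9% of peaks in runs of 5 to 9. For c-Jun the shares were 37.2% and 49.1%, and for MyoG 71.6% and 86.3%. The longest run, at 77707619 to 77870638 of chromosome 2, had 28 peaks in 163 kb. The next had 18 peaks in 83.6 kb, at 119886974 to 119970581 of chromosome 7, and 12 peaks in 75.4 kb, at 134794609 to 134870007 of chromosome 4. All 18 MyoD peaks of the run on chromosome 7 met a MyoG peak, 9 met RUNX1 and 6 met c-Jun. Over all runs of 10 or more peaks, 86.25% of MyoD peaks met MyoG, 59.7% met RUNX1 and 51.5% met c-Jun. The run on chromosome 2 differed from the others and is described last.

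Isolated MyoD peaks met fewer partners. With the nearest other MyoD peak more than 50 kb away (3824 peaks), RUNX1 was present at 25.9%, c-Jun at 33.1% and MyoG at 62.8%. With one within 5 kb (19112 peaks), the shares were 50.2%, 47.0% and 82.6%. The differences were 24.3 points ± 3.58 for RUNX1, 13.9 ± 3.26 for c-Jun and 19.8 ± 4.53 for MyoG, each above 0 on 19 of 19 chromosomes. Isolated peaks were also weaker, so the shares were compared within score classes. The difference was above 0 in 10 of 10 classes for each partner, with a mean of 20.1 points for RUNX1, 8.73 for c-Jun and 14.7 for MyoG.

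The RUNX1 difference was largest in strong classes, 24.9 points in class 8, and the MyoG difference in the weakest, 23.2 points in class 1. Even in class 10, RUNX1 was present at 56.5% of 253 isolated peaks and at 80.3% of 2348 peaks with a near neighbour. MyoG was present at 96.4% and 98.4% of the same peaks. Averaged over classes, RUNX1 was the partner whose share differed most between isolated and crowded MyoD peaks. Crowded MyoD peaks also had more partner peaks around them: within 50 kb of the centre, leaving out the overlapping ones, the mean was 5.40 RUNX1, 4.74 c-Jun and 8.31 MyoG peaks, against 0.796, 0.898 and 0.757 for isolated MyoD peaks. The part of this local density in the overlap shares was not tested.

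**Figure D4:**
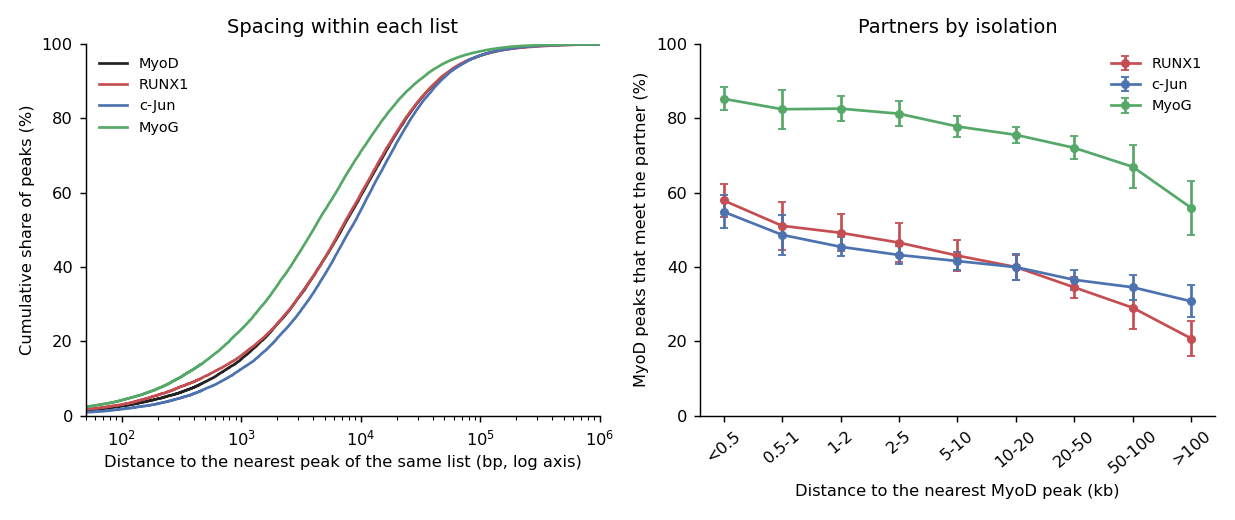
Left, cumulative share of peaks by distance to the nearest peak of the same list (log axis, edge to edge), where the MyoD and RUNX1 curves nearly coincide. Right, share of MyoD peaks that met each partner by distance to the nearest MyoD peak, with bars for the standard deviation over 19 chromosomes; the RUNX1 share falls from 57.9% under 0.5 kb to 20.7% over 100 kb.

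Neighbouring MyoD peaks resembled each other in partners but hardly in strength. Over 17474 pairs of neighbours within 10 kb, the Spearman correlation of their MyoD scores was 0.034. A MyoD peak met MyoG in 84.2% ± 2.19 of cases when the neighbour before it on the chromosome did and in 72.2% ± 4.19 when it did not, leaving out 300 pairs that met the same MyoG peak. For RUNX1 the shares were 51.8% ± 3.80 and 43.8% ± 3.66 without 771 pairs on a common RUNX1 peak, or 56.1% and 43.8% with them. For c-Jun they were 45.8% ± 2.06 and 42.0% ± 2.80 without 817 pairs on a common c-Jun peak, or 51.3% and 42.0% with them. Without such pairs the difference was above 0 on 19 chromosomes for RUNX1 and MyoG and on 15 of 19 for c-Jun.

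Very wide MyoD peaks were few and lay almost entirely at 1 place. On chromosomes 1 to 19, 12 MyoD peaks were wider than 4 kb, against 69 RUNX1, 17 c-Jun and 1 MyoG peak. Of the 12, 11 lay in the run on chromosome 2, and the other, 4592 bp wide, on chromosome 8. The 5 widest, all in the run, were 15906, 13445, 12481, 9805 and 9047 bp wide with scores of 937.44, 3100, 2224.4, 3100 and 3100. The widest MyoD peak was thus not among those at the score ceiling.

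The run held 28 MyoD peaks from 589 to 15906 bp wide, with a median of 2632 bp, and they covered 77.9% of its 163 kb. Of its 27 inner gaps 17 were under 200 bp, the smallest being 1 bp. The nearest MyoD peaks outside it were 51476 bp before and 139492 bp after it. The mean gap of the whole MyoD list was 52143 bp. Since runs were linked at gaps of up to 10 kb, outer gaps exceed inner ones by definition. Scores ran from 76.39 to 3100, with 7 peaks at 3100 and 4 under 200.

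The other factors also had peaks in the run. RUNX1 had 3 peaks with a highest score of 412.8, c-Jun 4 with a highest score of 568.6 and MyoG 8 with a highest score of 547.5. The 90th percentiles of these lists were at 998.5, 955.9 and 1172, so no partner peak of the run was among the strongest 10% of its list. They covered 1.99%, 2.37% and 2.86% of the run, against 1.89%, 2% and 1.735% of chromosomes 1 to 19, where MyoD peaks covered 1.547%. Of the 28 MyoD peaks, 18 (64.3%) met no partner, against 13.9% of the whole list, and 6 of the 11 over 4 kb were among them. In a run chosen for being 1 of the fullest, on chromosome 2 from 93265999 to 93319965 (53.97 kb), 18 MyoD peaks with a median width of 901 bp covered 33.8%, while RUNX1 covered 40.4% and MyoG 34.1%. There, 1 MyoD peak had no partner. In the run of wide peaks the cover was thus far above that of the whole list for MyoD, and near it for the other lists. The sequence, copy number and IgG signal of the run were not analysed here.

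**Figure D5:**
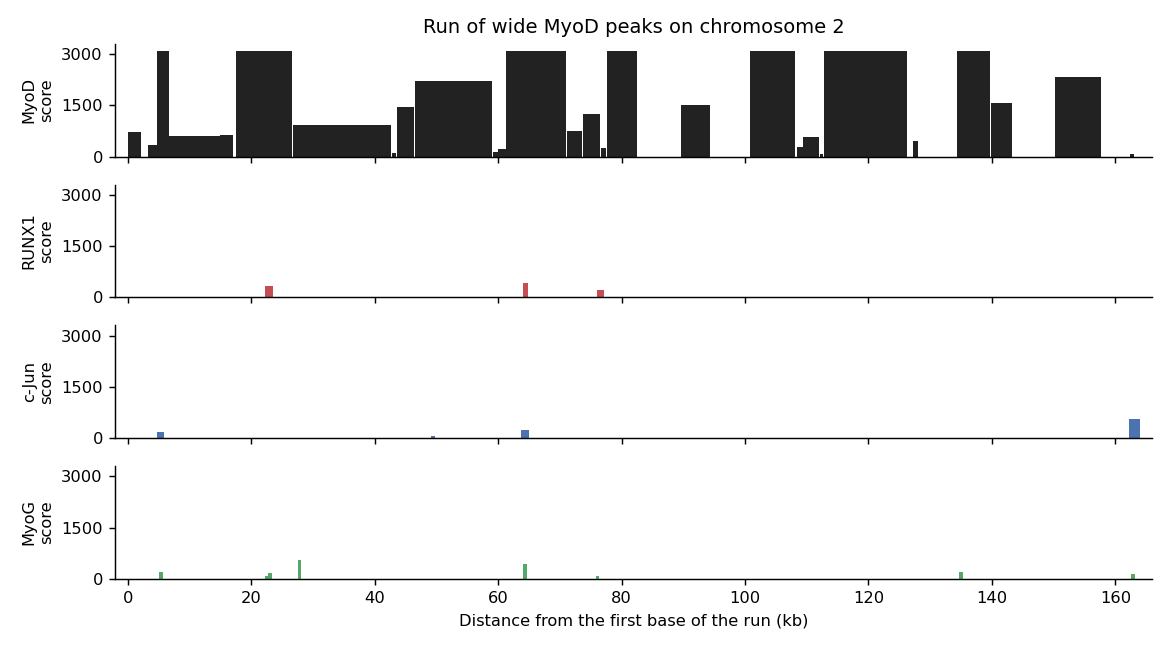
Peaks of the 4 lists in the run of wide MyoD peaks on chromosome 2, as bars from peak start to peak end whose height is the score, against the distance in kb from the first base of the run. MyoD peaks cover 77.9% of the run and reach 3100, and the peaks of the other lists cover 1.99% to 2.86%, with scores up to 568.6.

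Outside the run, wide MyoD peaks were of another kind. The 6 peaks between 3 and 4 kb elsewhere lay on chromosomes 1 (2 peaks), 4, 5, 7 and 11, had widths from 3088 to 3911 bp, and each met RUNX1, c-Jun and MyoG. Of the 6, 5 had a MyoD score of 3100, and the MyoG scores at the 6 were between 2023 and 3100. RUNX1 scores at the 6 ran from 114.6 to 3100 and c-Jun scores from 80.28 to 3100, so some of the partner peaks were weak. These 6 wide peaks were thus mostly at the ceiling and shared with every partner. Of all MyoD peaks at exactly 3100, 79.4% met all 3 partners.

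The peak on chromosome 8 matched neither kind. It lay from 19938099 to 19942690, had a score of only 91.31 and met no partner. Its width was 6.55 times the median of its score class. Within 64.3 kb, from 19938099 to 20002361, it was followed by 5 further weak MyoD peaks, and the 6 had scores from 53.73 to 91.31, widths from 524 to 4592 bp and no partner. A single peak of another list lay in that span. In classes 1, 2 and 3, where the scores of the 6 fall, 34.6%, 27.9% and 22.05% of MyoD peaks met no partner. The group was chosen with its values in view.

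In the whole list, 196 MyoD peaks were wider than 2 times the median of their score class, 18 of them in the chromosome 2 run and 159 in classes 9 and 10. In classes 1 to 3 there were 13, of which 3 were in the chromosome 8 group. Of the 196, 79.6% met RUNX1, 70.9% met c-Jun and 88.3% met MyoG, against 42.6%, 42.0% and 77.2% of the other MyoD peaks. Most of the 196 were strong, so these shares compare peaks of unlike score. Within class 10, the 106 peaks wide for their score met RUNX1 in 86.8% of cases against 74.8% of the rest, c-Jun in 82.1% against 79.75%, and MyoG in 92.45% against 98.1%. Of the 106, 12 were in the chromosome 2 run. All of the 106 that lacked a MyoG peak were among these 12, so outside the run the MyoG share of wide peaks was not lower. Most of the 12 met neither RUNX1 nor c-Jun, so outside the run both shares of the wide peaks were higher than those given.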

How the data were processed

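Peaks of 4 factors were used as deposited, 1 list per factor on mouse build mm9, per the submitters' processing notes, which also name Bowtie and CASAVA 1.7.0 and 1.8.2. Each deposited peak has a score that the authors' software wrote, and peak names in the files begin with MACS, a peak caller. Its version, settings and control, and whether the 2 libraries were pooled, are facts not given in the sources used here. DNA was sheared to about 300 bp, per the labels' protocols. Depth is unknown, so no counting interval was given for a peak.

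Starts were made 1-based. Overlap (1 bp), centre distances, edge to edge gaps, runs linked at 10 kb and windows of 100 kb were computed with Python 3.11.15, numpy 2.4.6, pandas 2.3.3 and scipy 1.17.1, and figures with matplotlib 3.10.9. Chromosome length was taken as the last peak end in any list. The overlap and gap functions were tested on simulated data in 5 sets against a direct comparison of every pair. Named peaks were the 5 widest, the strongest below 3100 of each partner combination, 3 at the ceiling with the highest summed partner score, the 5 fullest windows and the 3 longest runs; the run of 53.97 kb on chromosome 2 was added as one of the fullest. The members, lists and limits were chosen with earlier results of these data known. Sequences, motifs and genes were not analysed here, since the reference given is of another build. Alternatives were other overlap rules, class numbers, distances, width limits and peak sets.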

Additional observations from a re-analysis of the deposited data

Results flagged for a closer look

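Chromosome Y, outside the comparisons above, carried 19 peaks of the MyoD list, and the RUNX1, c-Jun and MyoG lists held 0 there. They lay between 1266407 and 2901320, 7 were wider than 4 kb, and 7 were at or above 3100. The widest was 13581 bp, and the median width was 749 bp. The IgG libraries were not analysed here, and the cause was not tested.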

How the results depend on the processing

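Of 39 alternatives, 0 reversed a direction, but a reversal was possible only for the differences between score classes. Among the 39, 16 stayed within the 95% interval of the value reported (or within 1.5 times a count) and 23 moved beyond it. These intervals are binomial over single peaks, which are not replicates, so a move beyond one is no test. In the order RUNX1, c-Jun, MyoG, the difference between the strongest and the weakest score class was 34.3, 38.7 and 39.5 points with centres within 150 bp, 39.2, 43.5 and 41.2 with windows of 200 bp, and 43.6, 47.4 and 41.8 with 5 classes, which by construction are less extreme. It was 44.8, 49.5 and 68.5 against the stronger 50% of each partner list, and 34.6, 35.8 and 36.4 for MyoD peaks 700 to 900 bp wide, an alternative chosen after seeing the data. Without peaks at or above 3100 it was 48.9 for RUNX1 and 54.02 for c-Jun. The share of MyoD peaks near another was 42.3% within 5 kb, 80.8% within 25 kb and 43.4% within 10 kb among peaks at or above the median score, which are fewer. The peaks wider than 4 kb fell from 12 to 1 without the chromosome 2 run, and 19 were wider than 3 kb. The median width was 814 bp without peaks at or above 3100. Removing the run or adding chromosome X moved no share or median beyond its interval.

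No paired analysis was possible because each factor has 1 joint list, and for that reason a library could not be left out. The motif alternatives were not run without a sequence of the files' build. Depth is unknown, so a missing partner peak is no proof of a factor's absence.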

Other observations

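MyoD peaks on chromosome X met fewer partners than those on any of chromosomes 1 to 19 by each list. Of 731 MyoD peaks on X, 23.0% met RUNX1, 28.6% met c-Jun and 68.4% met MyoG, against lowest values of 36.4%, 40.2% and 72.5% on a single other chromosome. Their median score was 140.7, below the lowest median of 162.0 on chromosomes 1 to 19, and their median width 770 bp, below the lowest of 801 bp. The lists held 555 RUNX1, 654 c-Jun and 965 MyoG peaks on X. The sex of the mice is not given in the labels, and its part in these values was not tested. The widest MyoD peak on X was 4186 bp.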
